A study of Mus musculus with 4 samples.

Results

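Aldosterone, the steroid hormone that makes the kidney keep sodium and excrete potassium, acts on the last segments of the nephron, the connecting tubule and the collecting duct. There the mineralocorticoid receptor, encoded by Nr3c2, switches on target genes such as the kinase gene Sgk1. Sodium then enters the principal cells through the epithelial sodium channel ENaC, which is built from the subunits encoded by Scnn1a, Scnn1b and Scnn1g. It leaves on the blood side through the sodium pump, Na,K-ATPase, while potassium passes into the urine through ROMK, the channel encoded by Kcnj1. The 9 genes described here are these 3 channel subunits, Kcnj1, the receptor gene Nr3c2, Sgk1, Hsd11b2, whose enzyme inactivates glucocorticoids so that the receptor is left to aldosterone, and 2 pump genes, Atp1b1 for a beta subunit and Fxyd2 for the regulatory gamma subunit. They were chosen by name, and every probe set listed under those names was taken: 17 of the 45037 probe sets of the array, for 9 of the 18193 genes it reads.

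Gene expression was measured in kidney tissue of male C57Bl/6 mice in 4 groups: WT mice after sham surgery, WT mice after 60 min without renal blood flow and 24 h of restored flow (ischemia-reperfusion, IR), mice labelled Tet2KO after sham surgery, and mice labelled Tet2KO after the same IR. Tet2 is a DNA demethylation gene, whose protein converts methylated cytosine to oxidised forms. The labels give no age and do not say which allele was deleted or in which cells. Each group is 1 array with RNA pooled from 3 mice. The spread between mice is therefore unknown, no test was possible, and no difference below has a replicate check.

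Values are log2 signals of the deposited table, and a difference of 1 is 2-fold. Signals under a floor at the 40th percentile of all signals, a log2 signal of 5.72, were set to that floor before ratios were taken. All 17 probe sets of the 9 genes were over it in all 4 arrays, so no fold given for them is a bound. Where a gene has several probe sets, the brightest that is not of the cross-binding _x_at kind stands for it. A technical SD is given for scale, the spread of the log2 ratio among probe sets that read 1 gene: 0.24 for IR over sham in WT, 0.39 for IR over sham in Tet2KO, 0.19 between the sham arrays and 0.32 between the IR arrays. It does not cover differences between mice. Both Tet2 probe sets stayed well over the floor in the arrays labelled Tet2KO, with log2 signals of 9.87 and 10.25 in Tet2KO sham and 8.74 and 8.60 in Tet2KO IR, against 9.96 and 9.84 in WT sham and 9.16 and 9.30 in WT IR. Where these probe sets lie relative to a deletion was not known here, so the genotype is given as labelled. The Tet2KO IR array stood farthest from the others, with correlations of 0.963 to 0.978 over all probe sets, and the sham arrays were closest, at 0.993.

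Some of the sequence around these genes bears on how hormone receptors find them. Mineralocorticoid and glucocorticoid receptors bind the same DNA element, a pair of hexamers in mirror order with a spacer between them. RefSeq promoter windows of mouse build GRCm38.p6, 250 bases before to 50 bases after an annotated start, were matched for 6 of the 9 genes, with 11 windows in all, 6 of them for Sgk1. The full element, spelled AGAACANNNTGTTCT, was searched on both strands; it reads the same on each. It stood in 3 of 32851 windows of all genes (0.00913%), and 1 of these 3 belonged to Sgk1. The hexamer AGAACA on either strand, which also lies inside the full element, stood in 19.0% of all windows and at least 2 times in 2.54% of them. Among the 11 windows, 4 held it, 3 of Sgk1 and the window of Kcnj1. Of these 4, the Sgk1 window with the full element and the Kcnj1 window are shown, because Kcnj1 had the widest range of the 9 genes and Sgk1 was the 1 gene past 2-fold in WT; the matches are in capitals.
Sgk1, the fifth of its starts in genome order, chr10:21993640-21993939, plus strand: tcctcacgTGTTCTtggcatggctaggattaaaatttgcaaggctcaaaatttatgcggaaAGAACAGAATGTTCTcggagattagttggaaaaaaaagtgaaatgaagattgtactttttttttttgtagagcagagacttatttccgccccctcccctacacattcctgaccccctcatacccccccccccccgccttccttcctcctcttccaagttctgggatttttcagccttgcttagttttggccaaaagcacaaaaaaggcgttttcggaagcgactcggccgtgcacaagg
Kcnj1, its 1 matched start, chr9:32393735-32394034, plus strand: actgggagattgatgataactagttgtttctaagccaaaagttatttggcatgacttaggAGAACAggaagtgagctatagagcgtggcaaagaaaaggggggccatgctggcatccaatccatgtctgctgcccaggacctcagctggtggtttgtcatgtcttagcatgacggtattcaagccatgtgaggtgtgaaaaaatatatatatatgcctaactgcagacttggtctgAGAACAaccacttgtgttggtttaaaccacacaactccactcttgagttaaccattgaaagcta
In the Sgk1 window the full element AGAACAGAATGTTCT ran from position -189 to position -175, counted from the start as position 1, and a further hexamer began at -242. In the Kcnj1 window the hexamers began at -190 and at -14. These are matches of letters, not measured binding sites. Sgk1 has 6 annotated starts and 1 probe set, which does not tell them apart. The windows of Scnn1b, Scnn1g, Nr3c2 and Atp1b1 held no match, which says only that these letters are not in those windows.

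The channel subunits did not move together. Scnn1a, the alpha subunit, had log2 signals of 8.84 in WT sham, 8.92 in WT IR, 8.91 in Tet2KO sham and 9.10 in Tet2KO IR. All 4 arrays lay within 0.26 of each other, and IR differed from sham by 0.08 in WT and by 0.18 in Tet2KO, both under the technical SD. Scnn1b, the beta subunit, had 8.38, 8.81, 8.45 and 8.03 in the same order of arrays. It was 1.35-fold higher after IR in WT and 1.33-fold lower after IR in Tet2KO, with the sham arrays 0.07 apart. Scnn1g, the gamma subunit, had 9.07, 9.34, 9.24 and 8.09. Its 3 other arrays lay close together and the Tet2KO IR array was low: 2.21-fold below its sham control and 2.37-fold below the WT IR array. In WT the subunit was 1.21-fold higher after IR.

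The subunits lay farther apart in the Tet2KO pair than in the WT pair. In the Tet2KO pair the log2 ratio of Scnn1g was -1.14 and that of Scnn1a 0.18, a difference of -1.33 where the technical SD was 0.39. In the WT pair the same subunits differed by 0.20, under the technical SD of 0.24, while Scnn1b was above Scnn1a by 0.36. The technical SD is that of a single ratio, and a difference between ratios varies more. The 0.36 is therefore not clearly beyond it. Scnn1b stood between Scnn1g and Scnn1a in the Tet2KO pair, with a log2 ratio of -0.41. Scnn1b and Scnn1g are neighbours on chromosome 7 with no other protein-coding gene between them, while Scnn1a lies on chromosome 6. Each subunit was read by 1 probe set, so no other probe set can be set beside these values.

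**Figure D1:**
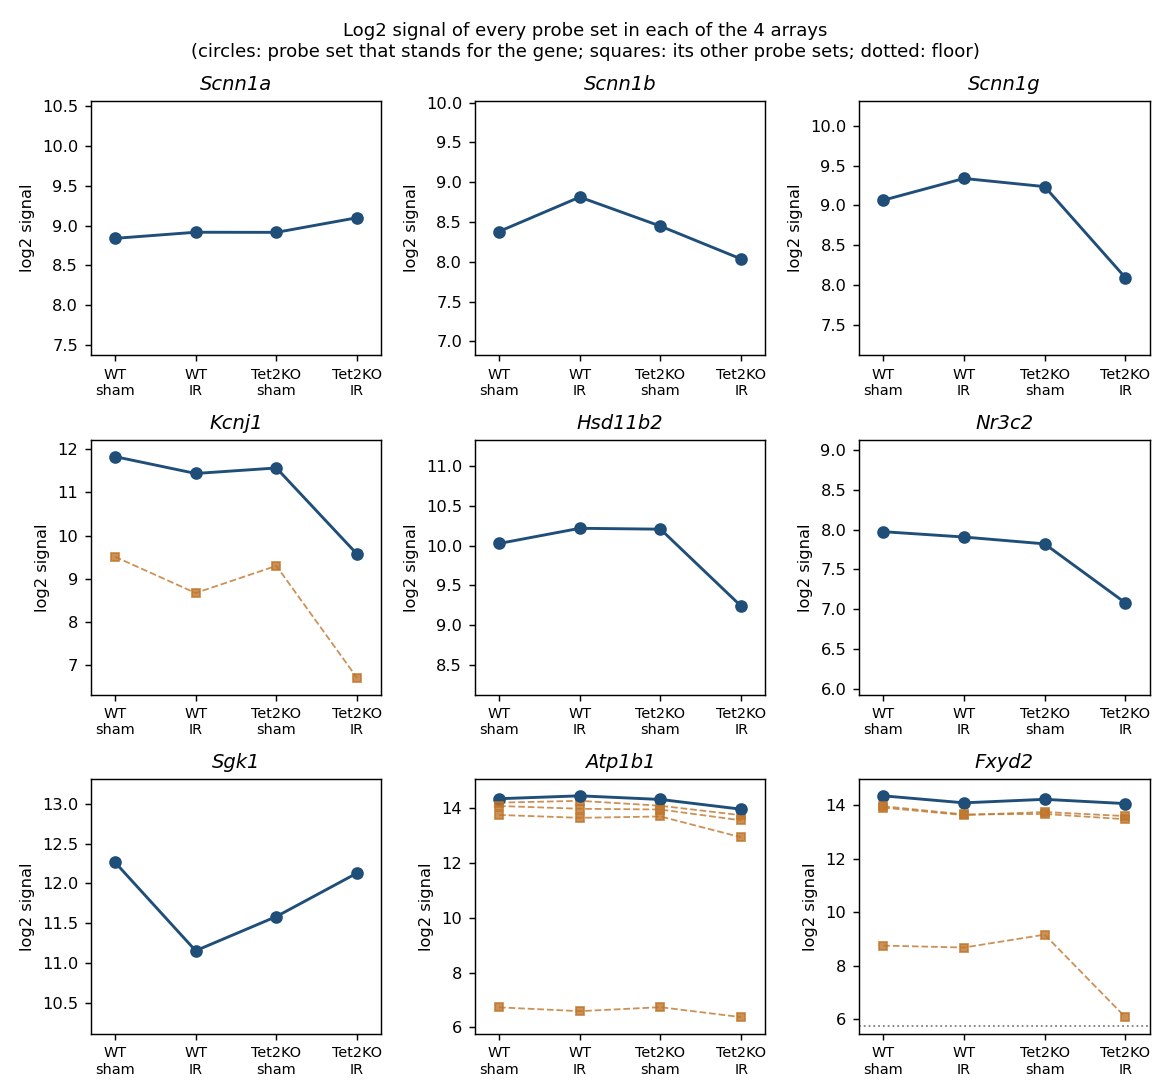
Log2 signal (vertical axis) of the 17 probe sets of the 9 genes in the 4 arrays (horizontal axis), 1 panel per gene; lines join the values of 1 probe set, circles mark the probe set that stands for the gene, squares its other probe sets and the dotted line the floor of 5.72. Scnn1g, Kcnj1, Hsd11b2 and Nr3c2 are lowest in the Tet2KO IR array, Sgk1 is lowest in the WT IR array, and the dimmest Fxyd2 probe set is far lower in the Tet2KO IR array, at 6.07, than in its other arrays.

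Kcnj1 had the widest range of the 9 genes, 2.25 on the log2 scale. ROMK, its product, also returns potassium to the urine in the thick ascending limb, where it keeps the salt transporter of that segment supplied, so its signal in whole kidney comes from more than the aldosterone-sensitive cells. Its log2 signals were 11.83 in WT sham, 11.44 in WT IR, 11.57 in Tet2KO sham and 9.57 in Tet2KO IR. The Tet2KO IR array stood far below the other 3, which lay within 0.39 of each other. Kcnj1 was 3.98-fold lower after IR in Tet2KO and 1.31-fold lower after IR in WT. Only 1.65% of the genes measured in the Tet2KO pair had a lower ratio. The second probe set of Kcnj1 gave 9.51, 8.68, 9.30 and 6.71 over these arrays, with log2 ratios of -0.84 in WT and -2.59 in Tet2KO, so both probe sets were lowest in the Tet2KO IR array.

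The thick ascending limb markers, listed beside Kcnj1 for this reason, were lower in the same array. Their summed linear signal over the 7 members measured was 58528 in WT sham, 40739 in WT IR, 54398 in Tet2KO sham and 20564 in Tet2KO IR, and none of the 7 was below the floor. Their median log2 ratio after IR was -0.79 in WT and -2.22 in Tet2KO, with 2 and 6 of 7 members lower at 2-fold or more. Of all genes measured, 2.18% in WT and 6.89% in Tet2KO were lower at 2-fold or more. In bulk tissue fewer cells of a type and less RNA per cell cannot be told apart, and the part of either in the Kcnj1 values was not tested. The markers of principal cells, which hold ENaC, had a summed signal of 12903, 11712, 10439 and 9479 in the same order. Over 8 members their median log2 ratio was -0.49 in WT and 0.11 in Tet2KO, with 2 lower at 2-fold in each pair. Their Tet2KO control was itself low: Tet2KO sham over WT sham had a median of -0.44, with 2 of 8 lower at 2-fold. Of all genes 0.846% were lower at 2-fold between the sham arrays.

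The receptor gene and its gatekeeper enzyme were both lowest in the Tet2KO IR array. Nr3c2 had log2 signals of 7.97, 7.91, 7.82 and 7.08 in WT sham, WT IR, Tet2KO sham and Tet2KO IR. It was 1.67-fold lower after IR in Tet2KO and 1.05-fold lower in WT. Hsd11b2 had 10.03, 10.22, 10.21 and 9.24. It was 1.96-fold lower after IR in Tet2KO, just under the 2-fold mark, and 1.14-fold higher in WT. For each of these genes the 3 other arrays lay within 0.19 of each other, and the Tet2KO IR array was lower than the nearest of them by more than the technical SD. Over the 4 arrays Hsd11b2 and Scnn1g were the most similar pair among the 9 genes, with a distance of 0.19 between their centred log2 signals.

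Sgk1 encodes the serum- and glucocorticoid-regulated kinase, which keeps ENaC at the cell surface by restraining the ubiquitin ligase encoded by Nedd4l. It was the 1 gene of the 9 to pass 2-fold after IR in WT. Its log2 signals were 12.27 in WT sham, 11.15 in WT IR, 11.58 in Tet2KO sham and 12.13 in Tet2KO IR. The WT sham and Tet2KO IR arrays were high and 0.14 apart, and the WT IR array was lowest. Sgk1 was 2.16-fold lower after IR in WT and 1.46-fold higher after IR in Tet2KO, a difference between the responses of 1.66 on the log2 scale that 1.40% of the genes measured exceeded. Part of it lies in the controls, because Sgk1 was 1.61-fold lower in Tet2KO sham than in WT sham. With the sham array of the other genotype as control, its log2 ratio after IR was -0.43 for WT and -0.14 for Tet2KO, so the 2-fold call in WT and the opposite directions were both lost.

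Sgk1 is expressed in many cell types, and the summed markers of fat, endothelium and urothelium differed between the arrays. The fat markers had a summed linear signal of 6974 in WT sham, 617 in WT IR, 1453 in Tet2KO sham and 9546 in Tet2KO IR over 5 members, and 1, 5, 5 and 2 of the 6 on the array were below the floor. The summed fat markers and Sgk1 were both low in WT IR and Tet2KO sham. Of the fat markers only Fabp4 was over the floor in both arrays, with log2 signals of 8.95 and 10.39. The order of the fat sums in these arrays therefore rests on that gene. The endothelial markers had 2349, 661, 2138 and 1702 over 6 members, lowest in WT IR. The urothelial markers had 1377, 797, 632 and 976 over 6 members, lowest in Tet2KO sham. The part of these cells in the Sgk1 values was not tested. Of the 6 adrenal cortex markers, the sign of the gland that makes aldosterone, 3, 4, 3 and 3 were below the floor in these arrays. Cyp21a1, with log2 signals of 6.88, 6.90, 6.87 and 6.77, and Star, with 6.66, 6.95, 6.86 and 7.15, were over it in all. The others were under or near the floor, so their levels cannot be compared.

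**Figure D2:**
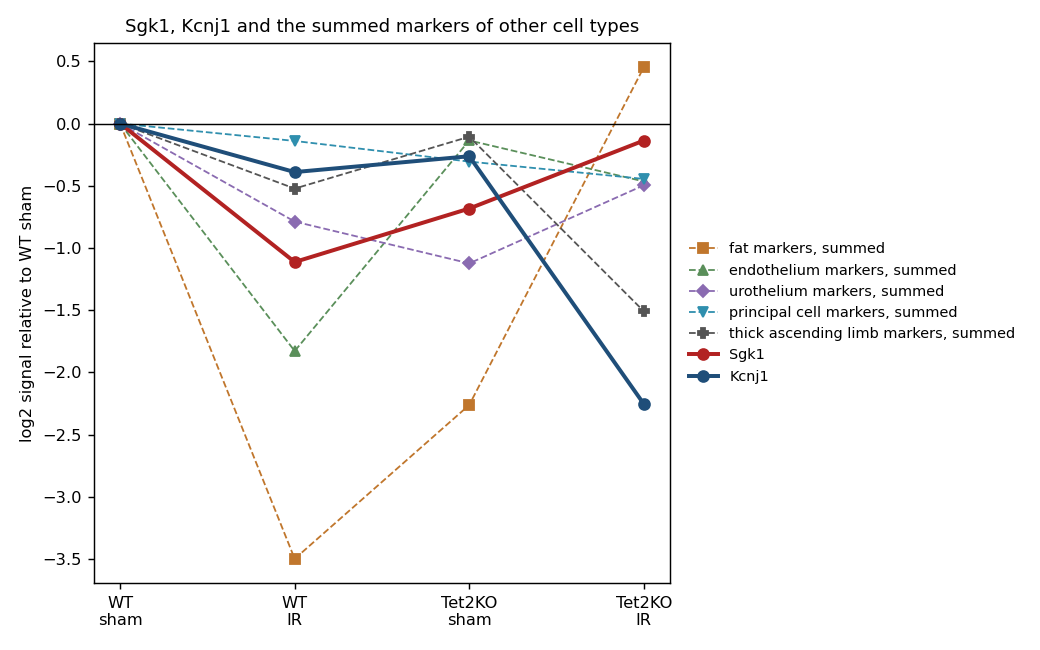
Log2 signal relative to WT sham (vertical axis) of Sgk1 and Kcnj1 (solid lines) and of the summed linear signals of marker lists (dashed lines) in the 4 arrays (horizontal axis). Sgk1 and the summed fat markers, of which only Fabp4 is over the floor there, are lowest in WT IR. Kcnj1 and the thick ascending limb markers are lowest in Tet2KO IR.

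The pump genes were among the brightest on the array, and the probe sets that stand for them passed 1.5-fold in no comparison. Between pairs of arrays, those beyond the technical SD were Fxyd2 after IR in WT, at -0.26, and Atp1b1 between the IR arrays, at -0.49. Atp1b1 encodes a subunit that the pump needs to reach the cell surface. It had log2 signals of 14.35 in WT sham, 14.46 in WT IR, 14.32 in Tet2KO sham and 13.97 in Tet2KO IR. After IR it was 1.08-fold higher in WT and 1.28-fold lower in Tet2KO, each within the technical SD. Its 5 probe sets had log2 ratios between -0.14 and 0.11 in WT and between -0.76 and -0.35 in Tet2KO, so all 5 were lower in the Tet2KO IR array than in its control. The value of -0.76, which is 1.70-fold lower and beyond the technical SD, came from a bright probe set, with log2 signals of 13.76, 13.65, 13.70 and 12.94. These signals lie near the highest of any probe set, 14.97, where an array may compress differences, and whether it did here was not tested.

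Fxyd2, the gamma subunit that tunes the pump's affinity for sodium, gave different answers by probe set. The brightest had log2 signals of 14.35, 14.09, 14.22 and 14.06 in WT sham, WT IR, Tet2KO sham and Tet2KO IR. Its 3 bright probe sets had log2 ratios after IR between -0.31 and -0.26 in WT and between -0.20 and -0.15 in Tet2KO. The remaining probe set, annotated to a non-coding transcript record of Fxyd2, had 8.75, 8.67, 9.16 and 6.07. It was 8.48-fold lower after IR in Tet2KO and 1.05-fold lower in WT. In the Tet2KO pair it lay 2.93 below the brightest probe set on the log2 scale, where the technical SD of a single ratio was 0.39. Which transcripts each probe set binds was not analysed here.

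The counts of the 9 genes were read against those of all genes measured. At 2-fold or more, 1 of 9 was lower after IR in WT, Sgk1, and 0 were higher, where 2.18% of the 13531 genes measured were lower and 2.06% higher. After IR in Tet2KO 2 of 9 were lower, Kcnj1 and Scnn1g, and 0 higher, where 6.89% of 13600 genes were lower and 6.06% higher. Their median log2 ratio was 0.08 in WT, where that of all genes was 0.02, and -0.41 in Tet2KO, where that of all genes was -0.02. In Tet2KO 7 of the 9 had a ratio below 0, as had 51.7% of all genes, and 5 were lower by more than the technical SD, as were 21.4% of all genes: Scnn1b, Scnn1g, Kcnj1, Hsd11b2 and Nr3c2. At 1.5-fold or more, 4 of the 9 were lower after IR in Tet2KO, where 14.5% of genes were. With the WT sham array as control for the Tet2KO IR array, Kcnj1 alone passed 2-fold, and Scnn1g had a log2 ratio of -0.97.

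**Figure D3:**
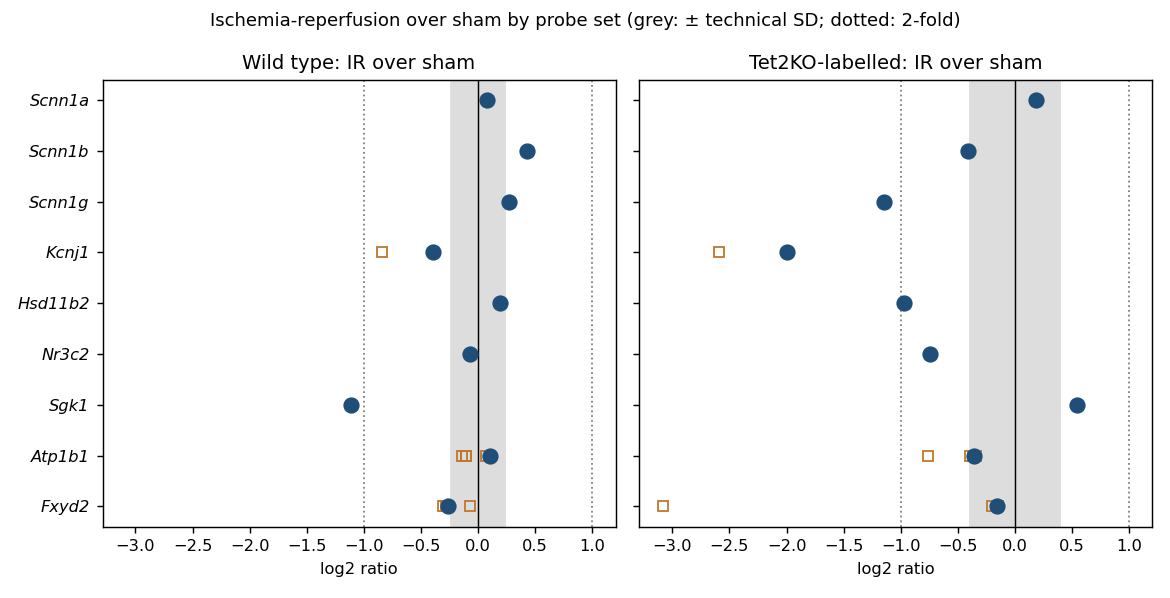
Log2 ratio of IR over sham (horizontal axis) for each of the 9 genes (vertical axis) in WT (left) and Tet2KO (right); filled circles are the probe set that stands for the gene, open squares its other probe sets, the grey band is the technical SD of 0.24 or 0.39 on either side of 0 and dotted lines mark 2-fold. In WT the circle of Sgk1 is past the 2-fold line, and in Tet2KO those of Scnn1g and Kcnj1 are.

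Between the sham arrays 0 of the 9 genes differed by 2-fold, where 0.846% of 13474 genes were lower in Tet2KO and 0.186% higher. At 1.5-fold 1 of 9 was lower, where 2.43% of genes were. Sgk1 at 1.61-fold lower and Kcnj1 at 1.20-fold lower in Tet2KO differed by more than the technical SD, as did 11.5% of all genes in that direction, and no other member did. Between the IR arrays 2 of 9 were lower in Tet2KO at 2-fold or more, Kcnj1 by 3.64-fold and Scnn1g by 2.37-fold, and 0 were higher, where 3.99% of 13492 genes were lower and 3.68% higher. Hsd11b2 was 1.97-fold lower, Nr3c2 1.77-fold and Scnn1b 1.72-fold, while Sgk1 was 1.97-fold higher. At 1.5-fold 5 of 9 were thus lower, where 10.5% of genes were, and 1 was higher, where 10.6% were. These comparisons share arrays with those of IR over sham and are no separate evidence.

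Scnn1b, Scnn1g and Sgk1, 3 of the 9, had ratios of opposite direction in the genotypes, each beyond the technical SD, where 3.69% of the 13323 genes measured in both pairs did. With the sham array of the other genotype as control none of the 3 met that rule, though the signs stayed opposed for Scnn1b, with 0.37 in WT and -0.35 in Tet2KO, and for Scnn1g, with 0.10 and -0.97. The difference between the responses of the genotypes passed 2-fold for 4 of 9 genes, where 4.77% of 13808 genes passed it downwards and 4.75% upwards. Kcnj1 had -1.60 on the log2 scale, Scnn1g -1.42 and Hsd11b2 -1.16, so these were lower in Tet2KO, and Sgk1 had 1.66. Of the 9 genes 7 had their lowest signal in the Tet2KO IR array, as had 36.4% of 13808 genes; the exceptions were Scnn1a, highest there, and Sgk1.

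**Figure D4:**
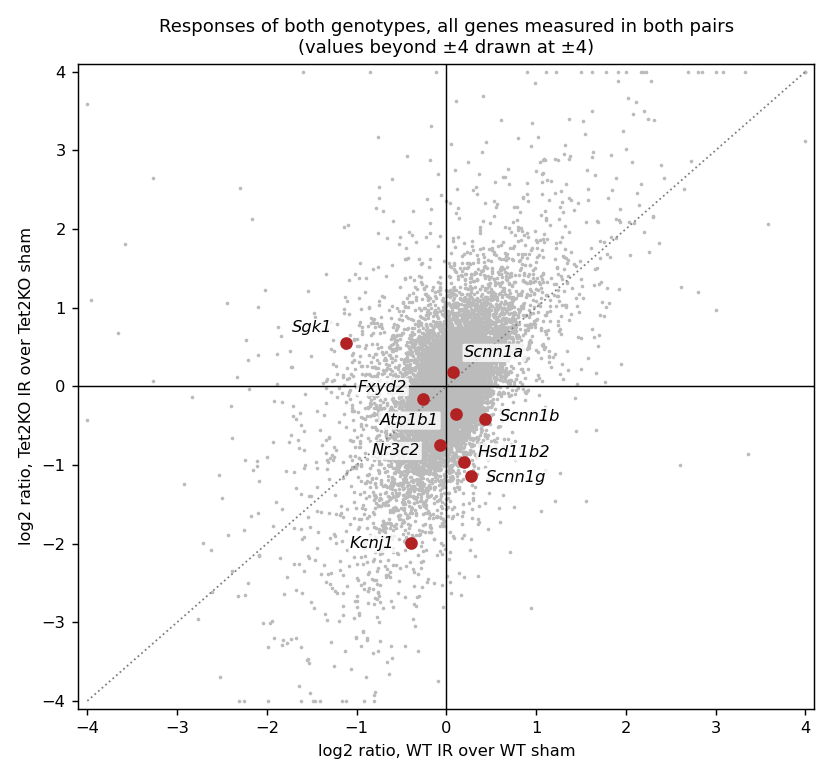
Log2 ratio of IR over sham in WT (horizontal axis) and in Tet2KO (vertical axis) for all genes measured in both pairs (grey) and the 9 genes (red); the dotted diagonal marks equal ratios. Kcnj1, Scnn1g, Hsd11b2 and Nr3c2 lie below the diagonal, and Sgk1 lies above it with a ratio of -1.11 in WT and 0.55 in Tet2KO.

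Genes around the receptor moved in both directions. For this and the following lists, the shares of all genes past 2-fold were those given above: 2.06% higher and 2.18% lower in WT, and 6.06% higher and 6.89% lower in Tet2KO. Of 22 genes measured on the mineralocorticoid signalling list, 1 was higher and 1 lower at 2-fold in WT, and 5 were higher and 4 lower in Tet2KO, with medians of 0.02 and 0.15. Tsc22d3, a steroid-induced inhibitor of inflammation signalling that also promotes sodium uptake, had log2 signals of 10.64 in WT sham, 9.33 in WT IR, 10.57 in Tet2KO sham and 9.93 in Tet2KO IR. It was thus lower after IR in both pairs, by 2.48-fold in WT and 1.56-fold in Tet2KO, where Sgk1 was higher. Zbtb16, a transcription factor gene induced by steroid receptors, had 7.23, 6.80, 6.25 and 9.18, and was 7.61-fold higher after IR in Tet2KO. Another Zbtb16 probe set, over the floor in all 4 arrays, had a log2 ratio of only 0.14 in that pair. Its _x_at probe set, under the floor in Tet2KO sham, had 4.26, so the size of the change depends on the probe set.

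Named after their values were seen, the steroid-responsive genes Per1, of the circadian clock, and Fkbp5, a receptor chaperone, were 2.57-fold and 2.11-fold higher after IR in Tet2KO. Another Fkbp5 probe set over the floor had a log2 ratio of 0.92 in that pair, under the 2-fold mark. Per1 was low in that control, with log2 signals of 8.93 in WT sham, 8.47 in WT IR, 8.03 in Tet2KO sham and 9.39 in Tet2KO IR, as Zbtb16 was. Likewise named after its values were seen, Usp2, a deubiquitinase gene, was 2.42-fold lower. In the same pair Edn1, encoding the peptide endothelin that restrains ENaC, was 2.68-fold higher. The glucocorticoid-activating enzyme gene Hsd11b1 was 2.75-fold lower there, with a log2 signal of 12.91 in Tet2KO sham against 11.66 in WT sham, and Ndrg2, an aldosterone-responsive gene, was 2.62-fold lower. Lcn2, the injury marker that is also a mineralocorticoid target, was higher in both pairs, by 50.9-fold in WT and by at least 230.2-fold in Tet2KO. Nr3c1, the glucocorticoid receptor gene, had log2 ratios of -0.42 in WT and -1.01 in Tet2KO on its brightest probe set. Other Nr3c1 probe sets over the floor had -1.07, -0.38 and -0.24 in WT and -0.66, -0.70 and -0.88 in Tet2KO. The 2-fold call of Nr3c1 thus depends on the probe set. Nedd4l had log2 ratios of 0.03 in WT and 0.03 in Tet2KO on its brightest probe set. Another Nedd4l probe set, with 7.50 in WT sham, had -1.07 and -2.27, so the direction depends on the probe set.

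On the list of other sodium pump genes 7 were measured. In WT 0 of 7 differed by 2-fold, with a median of -0.35. In Tet2KO 2 of 7 were higher, with a median of 0.15: Fxyd5, a pump regulator also known as dysadherin, by 2.41-fold, and Fxyd3 by 2.22-fold. Fxyd3 was low in its own control, with a log2 signal of 6.33 in Tet2KO sham against 7.81 in WT sham and 7.48 in Tet2KO IR. Fxyd5 had 7.05, 6.82, 7.00 and 8.27 and was highest in the Tet2KO IR array.

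The proteases that cleave ENaC and their inhibitors had 1 of 9 members past 2-fold after IR in Tet2KO and 0 in WT: St14, the membrane protease matriptase, was 2.72-fold higher, with log2 signals of 8.96, 9.63, 8.76 and 10.20. The list named distal potassium channels had a median of 0.07 in WT, with 0 of 10 past 2-fold. In Tet2KO its median was -0.59, with 1 of 9 lower, the channel subunit gene Kcne1 by 2.38-fold. The names of this list and the next do not place every gene in the distal nephron. Where each gene is expressed was not analysed here. The list named other distal salt transport includes Slc4a4 and Slc9a3. Over the list the medians were -0.28 in WT, with 0 of 10 past 2-fold, and -0.74 in Tet2KO, with 4 of 10 lower. Those were the sodium-calcium exchanger gene Slc8a1 by 8.70-fold, the loop transporter Slc12a1 by 5.52-fold, the thiazide-sensitive transporter Slc12a3 by 2.41-fold and the chloride channel subunit Bsnd by 2.29-fold. The renin-angiotensin genes, which drive aldosterone release, had 2 of 4 lower in Tet2KO, Agt by 2.87-fold and Ace by 2.74-fold. In WT 0 of 4 were past 2-fold. Other probe sets over the floor gave smaller log2 ratios in Tet2KO: -0.60 for Ace, -0.49 for Kcne1 and -1.34 for Slc8a1. The 2-fold calls of Ace and Kcne1 thus depend on the probe set.

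**Figure D5:**
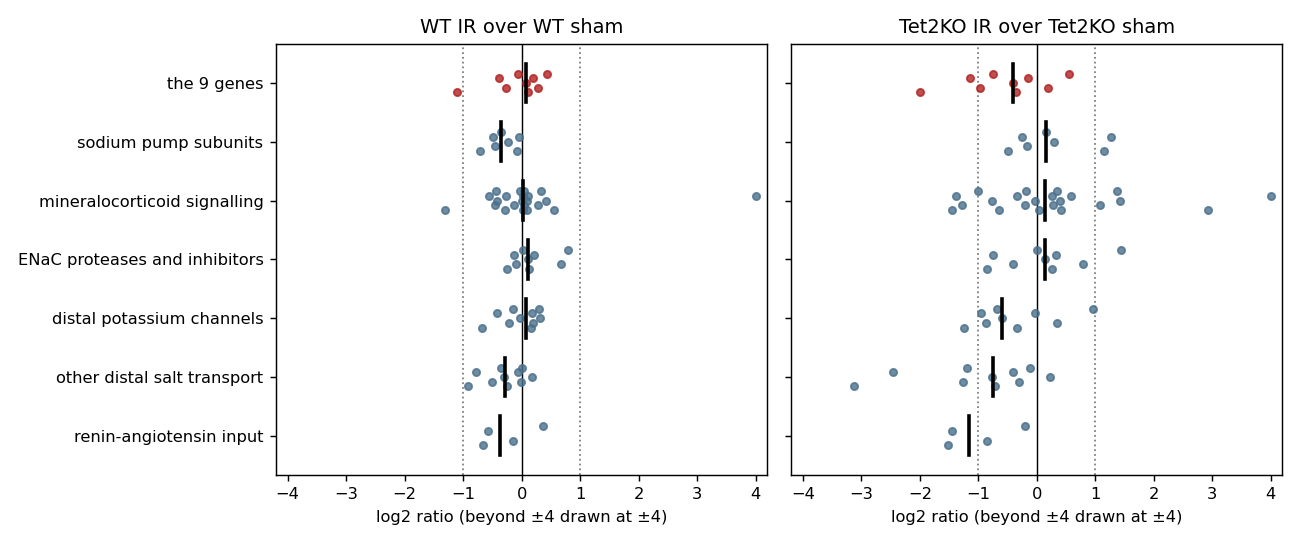
Log2 ratio of IR over sham (horizontal axis) in WT (left) and Tet2KO (right) for the 9 genes and the genes of 6 lists around them (vertical axis, 1 point per gene, set apart vertically for legibility); black bars are medians and dotted lines mark 2-fold. The median of the 9 genes is 0.08 in WT and -0.41 in Tet2KO, and that of the distal salt transport list is -0.28 and -0.74.

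For the 3 members with the widest range, the genes with the most similar pattern were sought among 12437 other genes over the floor in all arrays, by the Euclidean distance between centred log2 signals over 4 arrays. For Kcnj1 these were Aadac at 0.12, Pbld2 at 0.15 and Slc2a5 at 0.20, and 6 genes lay within 0.25. For Sgk1 they were Depp1 at 0.12, the sphingosine phosphate receptor gene S1pr1 at 0.12 and Acer2 at 0.20, and 7 genes lay within 0.25. For Scnn1g they were Lonp2 at 0.06, Hibch at 0.11 and 2700097O09Rik at 0.12, and 66 genes lay within 0.25. With 4 arrays many genes share a pattern, and the distances are a description.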

How the data were processed

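The deposited values are log2 signals, read as log2 from their range; the submitters' processing notes name MAS5, with no version, and how the authors scaled the arrays is not given in the sources used here. All 4 columns were used. Probe sets were named through the array annotation (34945 with 1 symbol, 932 with several, 9160 with none listed), checked against RefSeq of GRCm38.p6. Ratios, counts at 2-fold and medians were computed with Python 3.11.15, numpy 2.4.6 and pandas 2.3.3; with 1 array per group there was no test, and precision is limited by how few arrays there are. The steps were tested on simulated data with large planted changes and noise below the technical SD, which cannot speak to calls near the 2-fold mark. The named genes are the 9 members, from each of 6 pathway lists the up to 5 members past 2-fold after IR in either genotype, and Nr3c1, Nedd4l and Tsc22d3; exceptions are stated, and 1 item of the rule is not reported here. Of 12 marker lists, those not printed above had these median log2 ratios after IR in WT and Tet2KO: intercalated cell -0.11 and -0.10, distal convoluted and connecting tubule -0.36 and -0.83, proximal tubule -0.49 and -1.23, podocyte -1.54 and 1.06, endothelium -1.25 and -0.04, injured tubule 2.75 and 4.95, adrenal cortex 0.02 and -0.06, fat -3.27 and 2.64, urothelium -0.59 and 0.56, macrophage and neutrophil 0.26 and 0.76. The members and lists were chosen with earlier results of these data known. Alternatives were a pseudocount of 16 in place of the floor, a floor at the 20th percentile, no floor, other probe set choices, quantile normalization, a 1.5-fold threshold and the other genotype's sham array as control.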

Additional observations from a re-analysis of the deposited data

Results flagged for a closer look

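Of the 9 genes 3 had responses to ischemia-reperfusion of opposite direction in the genotypes, each larger than the technical SD, as had 3.69% of the genes measured in both pairs, and with 1 array per group the difference was not tested. Sgk1 was lower after IR in WT and higher in Tet2KO, with a difference of responses (Tet2KO minus WT) of 1.66 on the log2 scale. Scnn1g was higher in WT and lower in Tet2KO, with -1.42. Scnn1b was higher in WT and lower in Tet2KO, with -0.85; its ratio in Tet2KO, -0.41, lay barely beyond the technical SD of 0.39.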

How the results depend on the processing

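With the sham array of the other genotype as control, 0 of 9 genes passed 2-fold in WT in place of 1, 1 in Tet2KO in place of 2, and 0 genes had opposite responses beyond the technical SD in place of 3: Scnn1b had 0.37 and -0.35 and Scnn1g 0.10 and -0.97 in WT and Tet2KO, still of opposite sign, and Sgk1 had -0.43 and -0.14. With a pseudocount Scnn1b no longer met that rule, with -0.39 in Tet2KO, and with quantile normalization Scnn1g did not, with 0.21 in WT. With a threshold of 1.5-fold, 4 genes were called after IR in Tet2KO (all lower), 1 between the sham arrays and 6 between the IR arrays (5 lower in Tet2KO, 1 higher). The other counts stayed within 1.5 times the value reported, and no median of the 9 genes moved by more than the technical SD under the alternatives that were run. With plain _at probe sets, Fxyd2 was read by its dim probe set and had -3.08 after IR in Tet2KO. No paired analysis was possible because each group has 1 array and the labels give no replicate numbers. Leaving out a replicate was likewise not possible.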
